A study of Mus musculus with 2 samples.

Results

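Matrix and matricellular genes were described in macrophages and monocytes of the infarcted neonatal mouse heart: *Fn1*, *Thbs1*, *Tgfbi*, *Sparc*, *Vcan*, *Prg4*, *Col14a1* and *Ecm1*. They are 8 of the 32285 genes in the count tables and were picked by name, with their levels in these libraries in view, because they differed between kinds of macrophage. The levels between cell groups are therefore a description. The cells were live (7-AAD-negative) CD45+ cells sorted from whole ventricles from 9-day-old mice, 7 days after myocardial infarction (MI) at postnatal day 2 (P2MI7dpi). The first library was a pool of 5 WT hearts and the other a pool of 5 hearts with a global *Lyve1* knockout (KO). The knockout also removed LYVE-1, a hyaluronan receptor, from lymphatic endothelium, and both groups had the surgery, so no uninjured heart is in the comparison. The libraries were made with 10x Genomics GEM-X 5′ chemistry, in which each unique molecular identifier (UMI) marks 1 captured RNA molecule. Each genotype had 1 library, so genotypes were compared without a test, and the 95% intervals given cover counting error and say nothing of how hearts vary.

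The extracellular matrix holds fibrous proteins such as collagens and fibronectin together with proteoglycans, and it carries cells through integrins and other receptors. Matricellular proteins, among them thrombospondin-1 and SPARC, are secreted into the matrix without being structural parts of it, and they alter adhesion, protease activity and the handling of TGF-β. After MI the infarct is filled by a provisional, fibronectin-rich matrix that fibroblasts later replace by collagen, and macrophages both clear this matrix and secrete parts of it.

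Cells were gated on marker genes, each cell having been thinned at random to 5800 UMIs. In all, 988 of 2781 WT cells (35.5%) and 579 of 2463 KO cells (23.5%) of sufficient depth fell into 5 gates. *Prg4*/*Saa3*/*Marco* cells, which carry genes of body cavity macrophages, numbered 46 in WT and 43 in KO. *Folr2*/*Cd163* cells, a type of resident macrophage, numbered 248 and 127. *Olfml3*/*Fcrls* cells, whose genes are also found in microglia, numbered 437 and 175. *Ccr2*-positive macrophages numbered 119 and 93, of which 49 and 32 lay within 2 UMIs of the *Ccr2* limit. *Ly6c2*-high monocytes numbered 138 and 141. The macrophage gene *C1qa* was at 2646 to 4641 CPM (UMIs per 1000000 UMIs of the same cells) in both libraries of the first 4 gates and at 3.0 and 1.6 CPM in *Ly6c2*-high cells, while *Csf1r*, a receptor of all mononuclear phagocytes, was at 504 to 1687 CPM in all 5. *C1qa* is one of the genes the gates were set on, so its contrast follows from the gates and is no check of them. The first gate was not uniformly high in *Prg4*: 26 of its 46 WT cells and 11 of its 43 KO cells had no *Prg4* UMI before thinning, so it is named by 3 of its genes. Resident macrophages in between *Folr2*/*Cd163* and *Olfml3*/*Fcrls* cells (376 and 144 cells), B cells, T cells and neutrophils served as reference.

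*Lyve1* itself was at 1505 CPM in WT against 36.6 CPM in KO *Folr2*/*Cd163* cells and was lower in KO in each macrophage gate, while *Ly6c2*-high cells had 0 UMIs in WT and 18 in KO. The tables held 67968938 and 61555917 UMIs. The median depth of the gates was between 20469 and 30860 UMIs per cell, except for *Prg4*/*Saa3*/*Marco* cells with 49256 in WT and 62223 in KO. The libraries shared 9 cell barcodes, of which 0 were gated in both. Levels are compared within a gene and not between genes.

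*Fn1* encodes fibronectin, the adhesive glycoprotein of provisional matrix. Its level in *Prg4*/*Saa3*/*Marco* cells was 5262 CPM in WT against 6560 CPM in KO. *Ly6c2*-high cells had 1524 and 1609 CPM, and *Ccr2*-positive macrophages had 1169 and 1891 CPM. *Folr2*/*Cd163* cells had 339 and 505 CPM, and *Olfml3*/*Fcrls* cells had 24.9 and 65.7 CPM. The highest gate thus exceeded the next by 3.45-fold in WT and 3.47-fold in KO, and no neighbouring gates in either order had overlapping counting intervals. *Ly6c2*-high and *Ccr2*-positive cells changed places between the libraries.

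The levels of *Fn1* had different shapes over cells. In *Prg4*/*Saa3*/*Marco* cells 91.3% of WT and 90.7% of KO cells had an *Fn1* UMI at the thinned depth (95.7% and 95.3% before thinning), with medians of 27 and 32 UMIs. In *Ly6c2*-high cells the shares were 87.0% and 92.2%, with medians of 7 and 8 UMIs. Only 12.5% and 15% of *Folr2*/*Cd163* cells and 5.72% and 10.3% of *Olfml3*/*Fcrls* cells had one (22.2%, 26.8%, 11.9% and 17.1% before thinning), against 0.654% and 0.95% of B cells (1.96% and 2.14% before thinning, at lower median depths of 13469 and 14648 UMIs), a background for free RNA. The *Fn1* level of resident macrophages rested on few cells: 4 of 248 WT and 2 of 127 KO *Folr2*/*Cd163* cells held 50% of the *Fn1* UMIs of their gate. The highest KO cell alone held 39.1%.

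*Thbs1* encodes thrombospondin-1, a matricellular protein that binds CD36 and CD47, restrains vessel growth and activates latent TGF-β. Its level was 3348 CPM in WT against 1582 CPM in KO *Ly6c2*-high cells. In *Prg4*/*Saa3*/*Marco* cells it was 1303 and 1980 CPM, and in *Ccr2*-positive macrophages 1230 and 758 CPM. *Folr2*/*Cd163* cells had 147 and 25.3 CPM, and *Olfml3*/*Fcrls* cells had 74.8 and 82.5 CPM. The highest gate was therefore *Ly6c2*-high in WT and *Prg4*/*Saa3*/*Marco* in KO. Neutrophils, a reference outside the gates, had 4001 and 2656 CPM, while B cells had 0.89 and 2.91 CPM.

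Within *Ly6c2*-high cells *Thbs1* was uneven. At the thinned depth the median cell had 7 UMIs in WT and 3 in KO, while the highest cell had 103 and 68. At least 20 UMIs were found in 52 of 138 WT cells and 31 of 141 KO cells, and 33 WT and 55 KO cells had none. In *Prg4*/*Saa3*/*Marco* cells *Fn1* and *Thbs1* were found together in 35 of 46 WT and 34 of 43 KO cells, and Spearman's rho of their thinned counts over the cells of 1 library was 0.66 in WT and 0.42 in KO. In *Ly6c2*-high cells rho was 0.31 and 0.09, although 101 of 138 and 85 of 141 cells had both. These cells share a library and are not replicates.

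**Figure D1:**
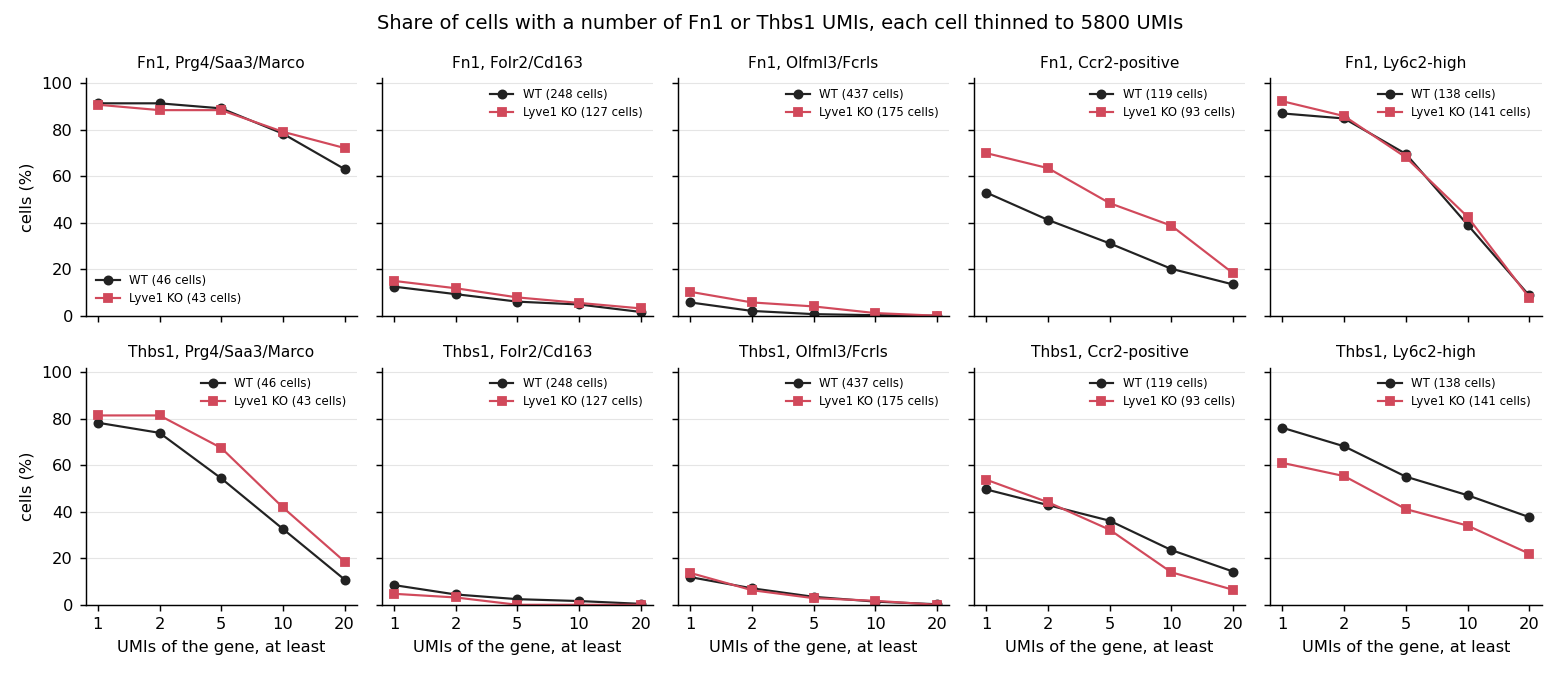
Share of cells (vertical axis, %) with at least the given number of *Fn1* UMIs (upper panels) or *Thbs1* UMIs (lower panels) in each gate, every cell thinned to 5800 UMIs; circles are the WT library, squares the *Lyve1* KO library. *Thbs1* curves of *Ly6c2*-high cells are separated along their length, from 105 of 138 WT and 86 of 141 KO cells with 1 UMI to 52 and 31 cells with 20 UMIs, whereas the *Fn1* curves of the same cells lie close together.

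*Tgfbi* encodes a TGF-β-induced adhesive glycoprotein that binds collagens and integrins, and among the 8 genes it was the most evenly spread over the gates. Its level was 552 CPM in WT against 523 CPM in KO *Ly6c2*-high cells and 504 and 695 CPM in *Ccr2*-positive macrophages. *Folr2*/*Cd163* cells had 286 and 200 CPM, *Olfml3*/*Fcrls* cells 274 and 235 CPM, and *Prg4*/*Saa3*/*Marco* cells 189 and 77.2 CPM. The highest gate exceeded the lowest by 2.92-fold in WT and 9.00-fold in KO. In WT the intervals of *Ly6c2*-high and *Ccr2*-positive cells overlapped, as did those of *Folr2*/*Cd163* and *Olfml3*/*Fcrls* cells. The *Tgfbi* UMIs were spread over many cells: 90.7% to 96.6% of the cells of each gate and library had at least 1 before thinning. At the thinned depth the shares were 67.4% in WT and 32.6% in KO *Prg4*/*Saa3*/*Marco* cells. In the other gates they were 60.6% to 89.2%. *Tgfbi* lies on chromosome 13 from 56609523 to 56639562 on the plus strand (GRCm38, GENCODE M21), in the reference build of the counts.

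Of the 8 genes, *Tgfbi*, *Vcan*, *Ecm1* and *Sparc* were in the RefSeq promoter table (GRCm38.p6). The 187 bases upstream of the first annotated start of *Tgfbi* lie at chr13:56609336-56609522. They are shown because this gene was found in most cells of each gate before thinning, with letters that match the SP1 motif GGGCGG in capitals:
Tgfbi: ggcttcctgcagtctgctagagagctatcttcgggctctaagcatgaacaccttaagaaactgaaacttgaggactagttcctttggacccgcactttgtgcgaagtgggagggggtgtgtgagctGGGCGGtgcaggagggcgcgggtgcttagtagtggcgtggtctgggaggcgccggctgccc
The other motifs searched on both strands were the TATA box TATAAA, AP-1 TGANTCA, PU.1 GAGGAAG, C/EBP TTGCNNAA, SMAD CAGACA, CREB TGACGTCA and the NF-kB motif. None of these was in the 250 bases before the RefSeq start of *Tgfbi*. The SP1 letters occur in 33.0% of the 32544 distinct promoter windows over the same 250 bases, and a match is a description of letters, not a binding site.

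*Sparc* encodes a collagen-binding matricellular protein, of which fibroblasts and endothelium are rich sources. It was low in all gates, at 11.1 CPM in WT against 13.2 CPM in KO *Folr2*/*Cd163* cells, 9.26 and 10.5 CPM in *Ccr2*-positive macrophages, and 8.96 and 3.50 CPM in *Olfml3*/*Fcrls* cells. *Prg4*/*Saa3*/*Marco* cells had 9 and 4 UMIs in all (3.90 and 1.48 CPM). *Ly6c2*-high cells had 2 UMIs in WT and 0 in KO, the latter allowing up to 0.779 CPM. The first and second gates of the order did not differ beyond counting error in either library. B cells had 3.01 and 8.03 CPM, which is in the range of the macrophage gates, so a level of this size is not clearly above free RNA.

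*Sparc* moved with markers of fibroblasts. The 7 fibroblast markers (*Col1a1*, *Col1a2*, *Col3a1*, *Dcn*, *Lum*, *Pdgfra* and *Postn*) summed to between 0.297 and 23.3 CPM over the WT gates and between 0.260 and 36.6 CPM over the KO gates, highest in *Folr2*/*Cd163* cells and lowest in *Ly6c2*-high cells, where 6 of the 7 were at 0 in each library. In *Folr2*/*Cd163* cells *Sparc* was at 18 CPM in the 78 WT cells with a fibroblast marker UMI and at 7.63 CPM in the 170 without. The KO values were 21.5 CPM in 57 cells and 5.48 CPM in 70 cells. The part of fibroblast RNA in the *Sparc* level was not tested.

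*Vcan* encodes versican, a large hyaluronan-binding chondroitin sulphate proteoglycan, and its UMIs were nearly all in monocytes. *Ly6c2*-high cells had 421 CPM in WT (95% interval 400 to 444) and 319 CPM in KO (302 to 338). *Ccr2*-positive macrophages had 5.95 and 19.9 CPM, from 18 and 59 UMIs. *Prg4*/*Saa3*/*Marco* cells had 3.03 and 5.54 CPM, *Folr2*/*Cd163* cells 1.62 and 0.236 CPM, and *Olfml3*/*Fcrls* cells 5 UMIs in WT (0.492 CPM) and 0 in KO. The monocyte level exceeded the next gate by 70.7-fold in WT and 16.0-fold in KO. Neutrophils, which share a myeloid origin, had 3 and 4 *Vcan* UMIs in 205 and 223 cells.

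Of the *Ly6c2*-high cells, 60.1% in WT and 50.4% in KO had a *Vcan* UMI at the thinned depth (71.0% and 71.6% before thinning), against 0.327% and 0% of B cells. Both *Fn1* and *Vcan* were found in 80 of 138 WT and 69 of 141 KO cells, and 3 and 2 cells had *Vcan* without *Fn1*, in a gate where 87.0% and 92.2% of all cells had *Fn1*. *Vcan* lies on chromosome 13 from 89655312 to 89742509 on the minus strand. The 250 bases before its start, at chr13:89742513-89742762 and read on that strand, are shown for this restriction to 1 gate, with the SP1 letters in capitals on either strand:
Vcan: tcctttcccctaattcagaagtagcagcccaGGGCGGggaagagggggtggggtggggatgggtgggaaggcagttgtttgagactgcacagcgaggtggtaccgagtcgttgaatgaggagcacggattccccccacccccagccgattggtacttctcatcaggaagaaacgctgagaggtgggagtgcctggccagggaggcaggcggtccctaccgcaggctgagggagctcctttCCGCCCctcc
The window held 62.4% G and C, matched SP1 at 2 places and matched none of the other motifs searched.

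*Prg4* encodes lubricin, the proteoglycan that coats joint and serosal surfaces, and it was one of the 7 genes of its own gate. Its level in *Prg4*/*Saa3*/*Marco* cells was 866 CPM in WT against 1877 CPM in KO. The gate held the same cells, and the level was the same, when *Prg4* was left out of its genes. The limits of the gate were still set after *Prg4* and its other genes were seen. The remaining gates had 0 to 7 UMIs each, at most 1.82 CPM, with overlapping intervals between neighbours in the order. T cells, with 1.44 and 0.673 CPM, were in that range, which is read as background.

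Within its gate *Prg4* divided the cells. At least 2 UMIs at the thinned depth were found in 14 of 46 WT and 24 of 43 KO cells. These cells had 7536 CPM of *Fn1* in WT and 8395 CPM in KO, and the other cells of the gate had 4169 and 3823 CPM. *Thbs1* followed the same order, with 2224 and 2412 CPM in the cells with *Prg4* and 860 and 1336 CPM in the others. *Tgfbi* was in the opposite order, with 140 and 51.9 CPM against 213 and 115 CPM. *Ecm1* was at 430 and 430 CPM against 321 and 380 CPM. The split also separated *Gata6*, the transcription factor of peritoneal cavity macrophages, at 73.4 and 79.6 CPM against 5.77 and 38.7 CPM, and *Alox15*, a lipoxygenase of the same cells, at 1099 and 1614 CPM against 66.1 and 169 CPM. Of the genes that name the gate, *Saa3*, an acute-phase protein, was at 19818 and 5815 CPM against 8057 and 4474 CPM. *Marco*, a scavenger receptor, was at 3236 and 1042 CPM against 2951 and 1731 CPM, so it was not higher in the KO cells with *Prg4*. *Folr2* was lower in the cells with *Prg4*, at 104 and 61.1 CPM against 621 and 530 CPM. The split was chosen after the values were seen, and depth differed, with medians of 52599 and 67343 UMIs in the cells with *Prg4* against 48047 and 52878.

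**Figure D2:**
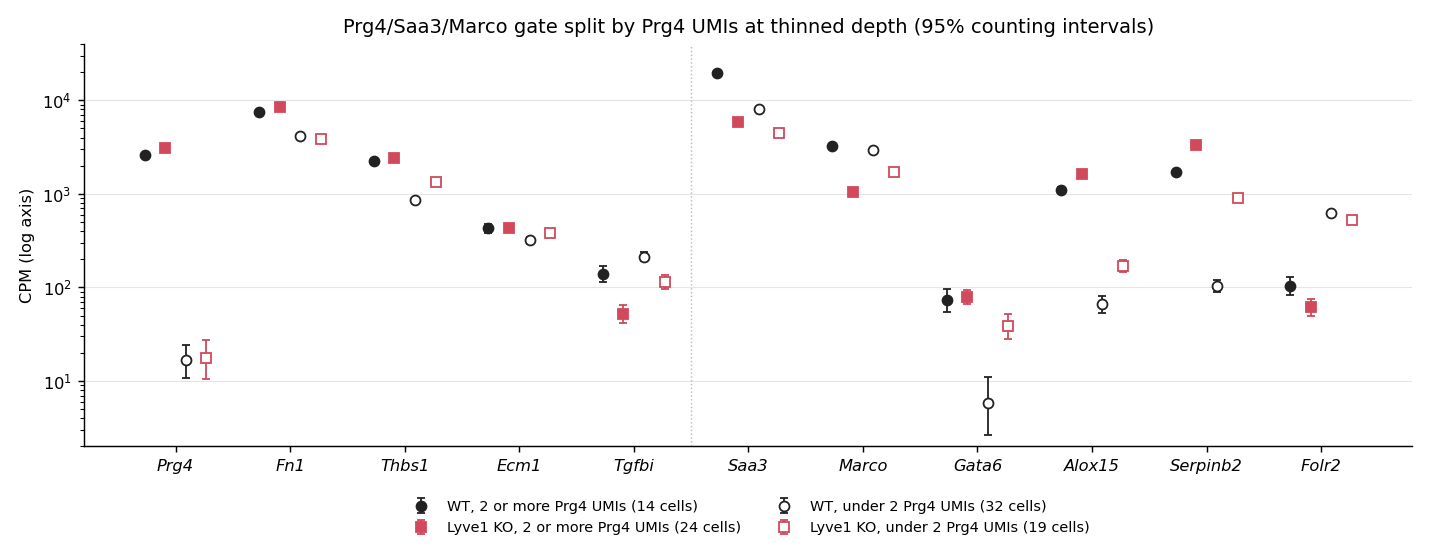
Levels (CPM, log axis) in *Prg4*/*Saa3*/*Marco* cells with at least 2 *Prg4* UMIs at the thinned depth (filled) and with fewer (open), for WT (circles, 14 and 32 cells) and *Lyve1* KO (squares, 24 and 19 cells), with exact Poisson 95% intervals; matrix genes are left of the dotted line, gate genes and *Serpinb2* right of it. *Fn1* and *Thbs1* are higher in the filled points of both libraries, and *Tgfbi* and *Folr2* are lower.

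*Col14a1* encodes the chain of collagen XIV, a fibril-associated collagen, and was highest in *Olfml3*/*Fcrls* cells. These had 117 CPM in WT (110 to 124) and 143 CPM in KO (132 to 155). *Ccr2*-positive macrophages had 51.6 and 47.0 CPM, *Folr2*/*Cd163* cells 20.8 and 18.9 CPM, and *Prg4*/*Saa3*/*Marco* cells 9.96 and 5.91 CPM. *Ly6c2*-high cells had 0 UMIs in 138 WT and 141 KO cells, which allows up to 0.890 and 0.779 CPM. The order was the same in both libraries, with no overlap between neighbouring gates. In *Olfml3*/*Fcrls* cells the UMIs were spread widely, over 298 of 437 WT and 111 of 175 KO cells before thinning, and the highest cell held 2.53% and 6.46% of them.

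The *Col14a1* level was not higher in cells with fibroblast markers in *Folr2*/*Cd163*, *Olfml3*/*Fcrls* or *Ccr2*-positive cells. In *Olfml3*/*Fcrls* cells it was 115 CPM in the 71 WT cells with a fibroblast marker UMI and 117 CPM in the 366 without, and in KO 124 CPM in 26 cells and 147 CPM in 149 cells. It was higher in cells with a platelet marker UMI in the same 3 gates of both libraries. In *Olfml3*/*Fcrls* cells these had 136 and 172 CPM in WT and KO, and the others 108 and 129 CPM. In *Ccr2*-positive macrophages the values were 111 and 127 CPM against 39.5 and 40.8 CPM, and in *Folr2*/*Cd163* cells 36.5 and 61.4 CPM against 16.3 and 13.3 CPM. In WT *Ccr2*-positive macrophages 5 of the 6 platelet markers were at 0, so the cells there were split by *Ppbp* alone. The part of platelets or of depth in these differences was not tested. Of the 15 other collagen genes listed, the fibroblast collagen *Col3a1* was at most 9.92 CPM in any gate, *Col15a1* at most 7.68 CPM, and *Col18a1* reached 27.3 CPM in KO *Prg4*/*Saa3*/*Marco* cells. The gene whose profile over the 10 combinations of gate and library was most like that of *Col14a1* was *Olfml3*, a gate gene (Pearson r 0.98 of log2(CPM + 10)), followed by *Epb41l2* and *Btbd9* (both r 0.98).

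*Ecm1* encodes a secreted glycoprotein that binds perlecan and fibulin and inhibits matrix metalloproteinase 9. Its level was 356 CPM in WT against 410 CPM in KO *Prg4*/*Saa3*/*Marco* cells, and 108 and 115 CPM in *Folr2*/*Cd163* cells. *Ccr2*-positive macrophages had 63.8 and 128 CPM, *Olfml3*/*Fcrls* cells 46.7 and 58.5 CPM, and *Ly6c2*-high cells 16.0 and 22.9 CPM. The highest gate exceeded the next by 3.29-fold in WT and 3.20-fold in KO. In KO the intervals of *Ccr2*-positive and *Folr2*/*Cd163* cells overlapped. At the thinned depth 84.8% and 76.7% of *Prg4*/*Saa3*/*Marco* cells had an *Ecm1* UMI (93.5% and 97.7% before thinning), each with a median of 2. T cells had 20.9 and 42.7 CPM, in the range of *Ly6c2*-high and *Olfml3*/*Fcrls* cells, while B cells had 1.95 and 2.09 CPM.

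*Ecm1* lies on chromosome 3 from 95734147 to 95739569 on the minus strand. The 250 bases before its start, at chr3:95739570-95739819 on that strand, are shown because they matched more of the motifs than the windows of *Tgfbi* and *Vcan*. In capitals, from left to right, are AP-1, SP1, the TATA box and SMAD:
Ecm1: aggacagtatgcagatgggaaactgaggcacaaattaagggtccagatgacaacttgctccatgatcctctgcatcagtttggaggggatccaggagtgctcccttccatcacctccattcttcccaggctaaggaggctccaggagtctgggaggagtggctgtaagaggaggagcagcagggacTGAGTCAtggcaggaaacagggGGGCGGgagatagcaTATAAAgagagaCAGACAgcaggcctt
Of all promoter windows, 6.73% hold the AP-1 letters, 12.3% the TATA box and 17.0% the SMAD letters.

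The remaining members lie at chr1:71585520-71653200 (*Fn1*, minus strand), chr2:118111876-118127133 (*Thbs1*, plus), chr15:55307750-55520803 (*Col14a1*, plus), chr1:150449412-150466165 (*Prg4*, minus) and chr11:55394500-55423183 (*Sparc*, minus). All 8 are protein-coding. *Prg4* overlaps *Tpr* on the other strand, which had 16466 UMIs in the gates. *Prg4* had few UMIs outside its own gate. The part of *Tpr* in the *Prg4* counts was not tested.

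**Figure D3:**
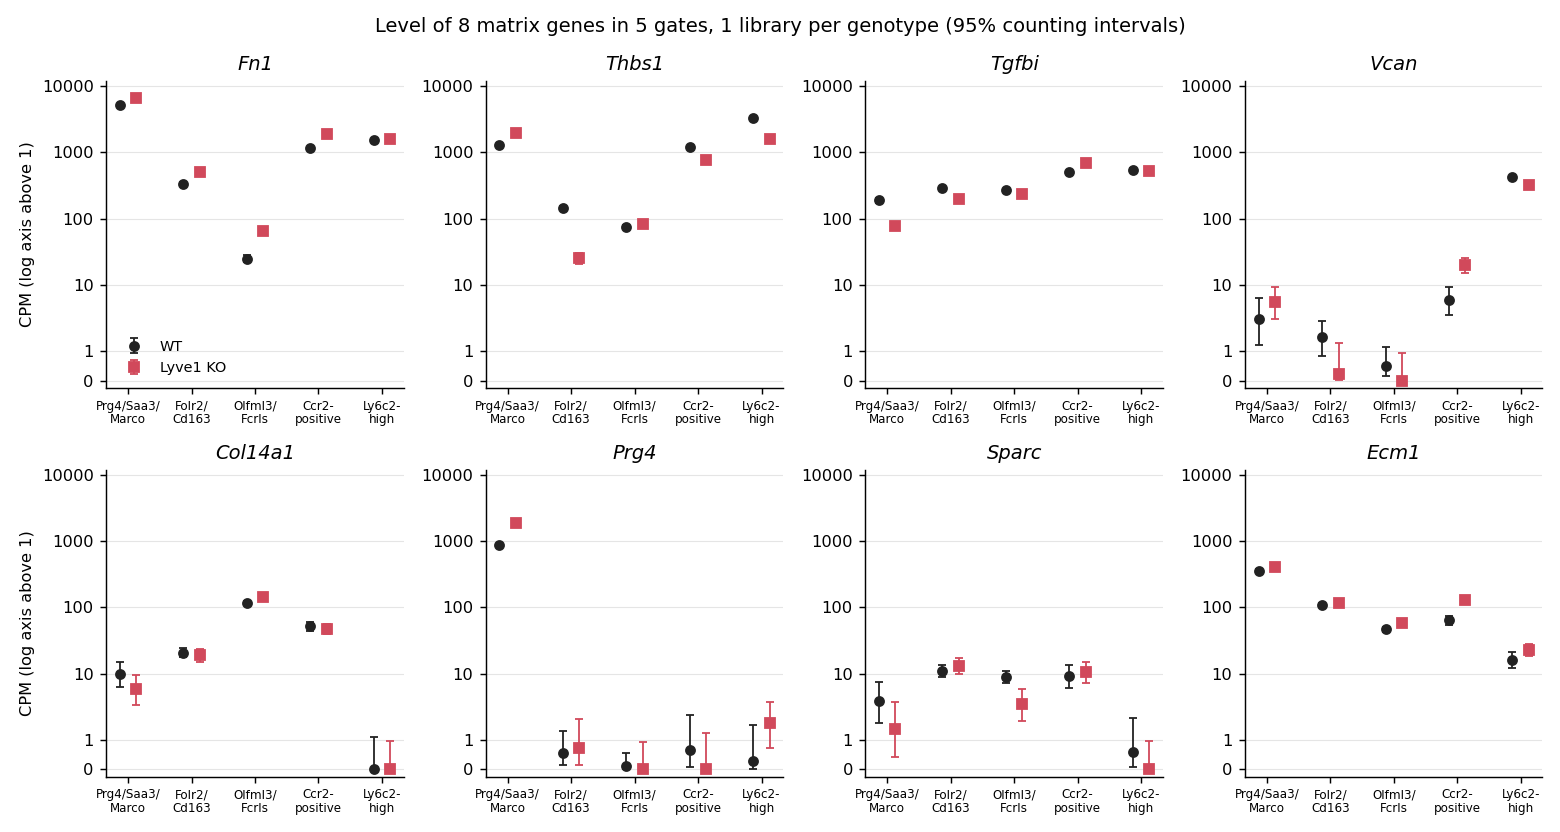
Level of each gene (CPM, axis logarithmic above 1 and linear below) in the 5 gates, for the WT library (circles) and the *Lyve1* KO library (squares), with exact Poisson 95% intervals that cover counting error only. *Vcan* stands out in *Ly6c2*-high cells, *Prg4* in its own gate and *Col14a1* in *Olfml3*/*Fcrls* cells, while *Tgfbi* lies between 77.2 and 695 CPM in all gates.

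The gate with the highest level was the same in both libraries for 6 of the 8 genes, with *Thbs1* and *Tgfbi* as exceptions. Over the 9409 genes with enough UMIs this held for 64.1%. Because the genes were picked for their differences between subsets, nothing is read from this comparison. Over the 10 profiles, *Fn1* and *Thbs1* (r 0.78) and *Prg4* and *Ecm1* (r 0.80) were most alike among the members, and *Fn1* and *Col14a1* (r -0.75) most unlike. Outside the list, the genes most like *Fn1* were *Gstp1*, *Srgn* and *Gda* (r 0.95 to 0.96), and those most like *Thbs1* were *Agpat4*, *Prkce* and *Adgre4* (r 0.94 to 0.95). For *Vcan* they were *Sub1*, *Cdc40* and the gate gene *Ly6c2* (r 0.99), for *Prg4* *Ucp1*, *Cd5l* and *Efnb2* (r 0.998 to 0.999), and for *Ecm1* *Calr*, *Fam20c* and *Sdc3* (r 0.97 to 0.98). For *Tgfbi* they were *Oas1a*, *Abcg3* and *Gm34084* (r 0.96 to 0.97), and for *Sparc* *Relb*, *Il4ra* and *Atp6v1c1* (r 0.90 to 0.91). These profiles share libraries and gates, and profiles led by 1 gate correlate readily.

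The second comparison, KO against WT within each gate, asks what the absence of LYVE-1 went with in each kind of cell. A pair of gene and gate entered it with at least 100 UMIs over both libraries, which 27 of 40 pairs had, and a ratio was called large when log2 of (KO CPM + 10)/(WT CPM + 10) was at least 1 in size. This held for 5 pairs. In *Prg4*/*Saa3*/*Marco* cells 2 of 5 members were past it, in a gate where 1.76% of all 5783 genes were. In *Folr2*/*Cd163* cells 1 of 6 was (background 0.709%), and in *Olfml3*/*Fcrls* cells 1 of 6 (background 0.3%). In *Ccr2*-positive macrophages 0 of 5 were (background 0.71%), and in *Ly6c2*-high cells 1 of 5 (background 0.303%). The median log2 ratio of the members and of all genes was 0.32 and 0.01, -0.01 and -0.07, 0.20 and -0.05, 0.45 and -0.03, and -0.08 and -0.01 in the same order of gates. The members were picked with these libraries in view, so nothing is read from these shares or medians about matrix genes as a set.

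*Thbs1* in *Ly6c2*-high cells was 2.12-fold lower in KO than in WT (95% counting interval 2.05 to 2.18, log2 ratio -1.08), from 11287 and 6089 UMIs. The difference was seen over many cells, with UMIs in 113 of 138 WT and 105 of 141 KO cells, and the highest cell held 4.12% and 4.43% of them. Without those cells the log2 ratio was again -1.08. Platelet and fibroblast markers were at or near 0 in these cells, at 0.297 and 0.260 CPM for fibroblasts in WT and KO and 0.297 and 0.779 CPM for platelets. *Thbs1* was also lower in KO in *Ccr2*-positive macrophages (1.62-fold, 1.54 to 1.71) and in neutrophils (1.51-fold, 1.46 to 1.56), neither of which was past the limit. In the *Ccr2*-positive gate platelet markers were at 43.3 CPM and 3.72 CPM, and without the cells that had one *Thbs1* was at 1413 and 797 CPM. In the WT cells of this gate 5 of the 6 platelet markers were at 0, so the sum there is that of *Ppbp* alone.

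In *Folr2*/*Cd163* cells *Thbs1* was 5.81-fold lower in KO (4.76 to 7.15, log2 ratio -2.15), but 1 WT cell held 44.1% of its 1088 UMIs. Without the highest cell of each library the levels were 82.9 and 19.4 CPM (log2 ratio -1.66). *Thbs1* UMIs were in 15.7% of WT and 13.4% of KO cells, and in 8.47% and 4.72% at the thinned depth. Platelets are rich in thrombospondin-1 protein, and the 6 platelet markers were at 14.8 CPM in WT against 4.72 CPM in KO in this gate; without the cells that had such a UMI *Thbs1* was at 143 and 23.5 CPM. In *Prg4*/*Saa3*/*Marco* cells the direction was opposite, with *Thbs1* 1.52-fold higher in KO (1.45 to 1.59). Among those with at least 2 *Prg4* UMIs (14 WT and 24 KO cells) *Thbs1* was at 2224 and 2412 CPM, and among the others at 860 and 1336 CPM. In the in-between resident cells it was 1.62-fold higher (1.5 to 1.75).

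*Fn1* was higher in KO in all 5 gates, by 1.06-fold in *Ly6c2*-high cells, 1.25-fold in *Prg4*/*Saa3*/*Marco* cells, 1.49-fold in *Folr2*/*Cd163* cells, 1.62-fold in *Ccr2*-positive macrophages and 2.64-fold in *Olfml3*/*Fcrls* cells. Only the last was past the limit (2.21 to 3.15, log2 ratio 1.12). It came from 253 and 263 UMIs, of which 5 of 437 WT and 3 of 175 KO cells held 50%. Without the highest cell of each library the log2 ratio was 0.99 in this gate and 0.25 in *Folr2*/*Cd163* cells (0.56 with it), and without cells with a platelet marker UMI it was 0.76 in *Olfml3*/*Fcrls* cells. In cells with a fibroblast marker UMI *Fn1* was lower in KO in *Folr2*/*Cd163* (300 and 107 CPM) and *Olfml3*/*Fcrls* cells (39.3 and 16.6 CPM). Such cells had more *Fn1* in KO in the *Prg4*/*Saa3*/*Marco* and *Ccr2*-positive gates, and *Ly6c2*-high cells held 1 per library. The in-between resident cells, which are in no gate, had 309 and 764 CPM of *Fn1*, 2.47-fold higher in KO (2.35 to 2.60). *Fn1* in *Ccr2*-positive macrophages was found in more cells, 63 of 119 in WT and 65 of 93 in KO at the thinned depth. In *Prg4*/*Saa3*/*Marco* cells with at least 2 *Prg4* UMIs (14 WT and 24 KO cells) *Fn1* was at 7536 and 8395 CPM. The others of that gate, 32 and 19 cells, had 4169 and 3823 CPM and so were not higher in KO.

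*Tgfbi* in *Prg4*/*Saa3*/*Marco* cells was 2.45-fold lower in KO (2.07 to 2.90, log2 ratio -1.19), from 437 and 209 UMIs in 44 of 46 and 39 of 43 cells. At the thinned depth 31 WT and 14 KO cells of this gate had a *Tgfbi* UMI. It was lower both in the cells with *Prg4* (140 and 51.9 CPM) and in the others (213 and 115 CPM). In *Folr2*/*Cd163* cells it was 1.43-fold lower and in *Olfml3*/*Fcrls* cells 1.17-fold lower, whereas *Ccr2*-positive macrophages had 1.38-fold more (1.29 to 1.47). *Ly6c2*-high cells did not differ beyond counting error (0.95-fold, 0.89 to 1.01).

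*Prg4* in its gate was 2.17-fold higher in KO (2.06 to 2.28, log2 ratio 1.11). The share of cells with at least 2 *Prg4* UMIs differed between the libraries, and within these cells alone the levels were 2633 and 3124 CPM (log2 ratio 0.25). These cells were picked by *Prg4* itself, so share and level cannot be told apart from this value. The gate also differed between the libraries in *Saa3* (11875 and 5277 CPM in WT and KO), *Marco* (3044 and 1319 CPM) and *C1qa* (4392 and 2646 CPM), and the part of this in its *Prg4* and *Tgfbi* ratios was not tested. *Ecm1* was higher in KO in all 5 gates, by 1.06-fold to 2.01-fold, but not beyond counting error in *Folr2*/*Cd163* cells (0.94 to 1.19). In that gate it was at 95.9 and 129 CPM in cells with a fibroblast marker UMI. In those without, it was at 115 and 101 CPM in WT and KO. The largest *Ecm1* ratio, in *Ccr2*-positive macrophages (1.68 to 2.40, log2 ratio 0.90), was just short of the limit, and 1 KO cell held 18.7% of its UMIs. With at least 20 UMIs of the macrophage genes per cell it was just past it (log2 ratio 1.01). *Col14a1* was 1.23-fold higher in KO *Olfml3*/*Fcrls* cells (1.11 to 1.35) and did not differ beyond counting error in *Folr2*/*Cd163* and *Ccr2*-positive cells. *Vcan* was 1.32-fold lower in KO *Ly6c2*-high cells (1.22 to 1.42). This ratio differed by the sex of the cells, as given below. *Sparc* was 2.56-fold lower in KO *Olfml3*/*Fcrls* cells (1.45 to 4.87), from 91 and 14 UMIs, with a log2 ratio of -0.49 at these low levels.

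**Figure D4:**
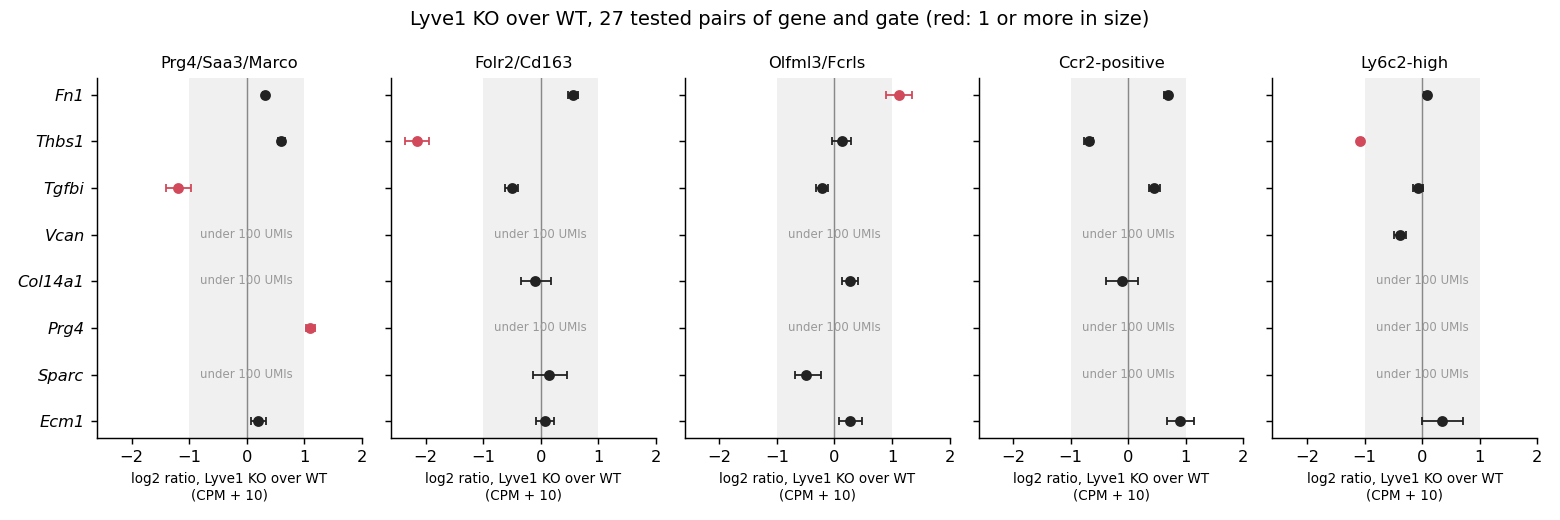
Log2 ratio of CPM + 10, *Lyve1* KO over WT (horizontal axis), for the 27 pairs of gene and gate with at least 100 UMIs, with 95% counting intervals; the grey band marks ratios under 1 in size and red points lie outside it. *Fn1* and *Ecm1* lie right of 0 in all 5 gates, although the interval of *Ecm1* in *Folr2*/*Cd163* cells spans 0, and *Thbs1* lies on both sides. The share of all genes that lie right of 0 in all 5 gates was not computed.

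Each pool held hearts of both sexes, so cells with *Xist* and no Y-linked UMI and cells with the reverse came from different animals, although how many of each is not known. *Thbs1* in *Ly6c2*-high cells was the only 1 of 27 pairs whose ratio was past the limit in the same direction in both: 3371 CPM in WT against 1403 CPM in KO in the *Xist* cells (log2 ratio -1.26), and 3347 and 1640 CPM in the Y-linked cells (log2 ratio -1.03). *Tgfbi* in *Prg4*/*Saa3*/*Marco* cells was lower in KO in both, with log2 ratios of -0.86 (10 and 6 cells) and -1.11 (34 and 36 cells). The other 3 were past the limit in the Y-linked cells alone. *Thbs1* in *Folr2*/*Cd163* cells had a log2 ratio of -0.56 in *Xist* cells and -2.79 in Y-linked cells, and *Prg4* in its gate had 0.23 and 1.95. The *Prg4* levels were 2175 CPM in WT and 2551 CPM in KO *Xist* cells, and 440 and 1730 CPM in Y-linked cells. Within WT, *Prg4* thus differed more between these kinds of cell than it did between the libraries over all cells (866 and 1877 CPM). *Fn1* in *Olfml3*/*Fcrls* cells had a log2 ratio of -0.14 in *Xist* cells and 1.69 in Y-linked cells, so its direction differed between them. *Fn1* in *Ly6c2*-high cells, not past the limit over all cells, had 0.35 and -0.06. *Vcan* in *Ly6c2*-high cells had a log2 ratio of -0.67 in *Xist* cells (551 CPM in WT and 342 CPM in KO). In Y-linked cells it had -0.04 (317 and 307 CPM). *Ecm1* in *Ccr2*-positive macrophages, not past the limit over all cells, had 51.2 and 203 CPM in *Xist* cells (log2 ratio 1.80, from 48 and 197 UMIs) and a log2 ratio of 0.55 in Y-linked cells. *Ecm1* was not higher in KO *Xist* cells of *Folr2*/*Cd163* (-0.13, against 0.28 in Y-linked cells) or *Ly6c2*-high cells (-0.005, against 0.75). In all, 19 of 27 pairs had the same sign in both kinds of cell. The shares over all genes were not computed for this count or for the 1 of 27 above. Neither is therefore read as a trait of these genes.

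**Figure D5:**
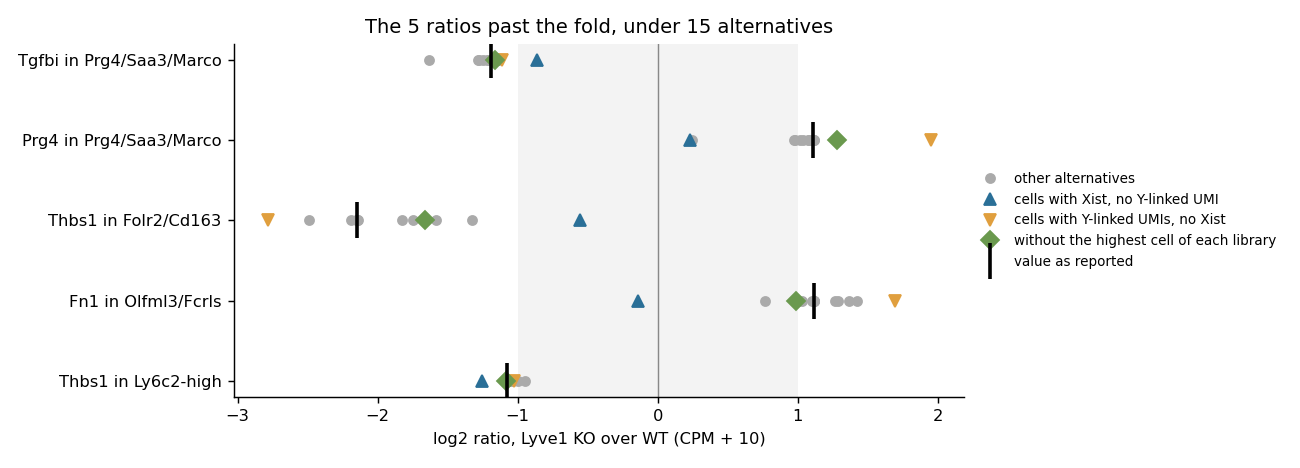
The 5 log2 ratios (CPM + 10, *Lyve1* KO over WT, horizontal axis) that were past 1 in size, as reported (black bars) and under 15 alternatives (points), with the cells of each sex and the removal of the highest cell marked. *Thbs1* in *Ly6c2*-high cells stays between -1.26 and -0.95, whereas *Fn1* in *Olfml3*/*Fcrls* cells runs from -0.14 to 1.69.

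Matrix genes outside the 8 were described by 6 lists, written with earlier results of these data known. In 251 combinations of a listed gene and a gate with enough UMIs, 6 were past the limit upward and 5 downward, while among all genes the share past it was 0.3% to 1.76% by gate. Of 33 combinations of glycoproteins and matricellular proteins, 3 were higher and 1 was lower in KO. *Spp1*, which encodes osteopontin, was 3 of these: 77.7 CPM in WT against 440 CPM in KO in *Olfml3*/*Fcrls* cells, 211 and 1189 CPM in *Ccr2*-positive macrophages, and 57.6 and 23.7 CPM in *Prg4*/*Saa3*/*Marco* cells. The other was *Ltbp1*, which binds latent TGF-β, at 26 and 152 CPM in *Prg4*/*Saa3*/*Marco* cells. *Emilin2*, an elastin interface glycoprotein, had in both libraries the order of gates that *Fn1* had in WT, with 581 and 920 CPM in that gate and 497 and 465 CPM in *Ly6c2*-high cells. *Igfbp4* was highest in *Folr2*/*Cd163* cells, at 813 and 777 CPM.

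Of 53 combinations of crosslinking, processing and protease control genes, 2 were higher and 2 lower. Among them, *Serpinb2*, an inhibitor of urokinase, was at 625 CPM in WT against 2359 CPM in KO in *Prg4*/*Saa3*/*Marco* cells, and urokinase itself, *Plau*, was at 45.0 and 16.6 CPM. *F13a1*, the transglutaminase subunit of factor XIII that crosslinks fibrin and fibronectin, was at 2899 and 3202 CPM in *Folr2*/*Cd163* cells, the gate in which it was highest, and *P4hb* and *Timp2* had no ratio past the limit. Among 60 combinations of TGF-β signalling genes, *Tgfb2* was higher in KO *Prg4*/*Saa3*/*Marco* cells (13.9 and 51.0 CPM) and *Bambi*, a decoy receptor, was lower in KO *Ly6c2*-high cells (59.0 and 22.6 CPM). *Tgfb1* was between 270 and 403 CPM in all gates and libraries.

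Of 98 combinations of matrix receptors, 1 was past the limit: the integrin subunit *Itgb5*, at 40.3 and 11.8 CPM in *Prg4*/*Saa3*/*Marco* cells. The hyaluronan receptor *Cd44*, the integrin subunit *Itgam* and the collagen-binding receptor *Mrc1* were the highest of that list, with none past the limit. Of 6 combinations of proteoglycan and hyaluronan synthesis genes, 0 were past it. Serglycin, *Srgn*, the proteoglycan of secretory granules, was at 628 to 1895 CPM in all gates.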

How the data were processed

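scRNA-seq counts of 2 libraries were used. The authors counted UMIs with Cell Ranger on mm10 and deposited raw counts per gene and barcode (version 8.0.1 in the submitters' processing notes), restricted to barcodes called as cells. The limits were 500 genes or more, 250 UMIs or more, and a mitochondrial share of 30% or less. The automatic doublet call of scrublet marked 0 barcodes per library within these limits, so barcodes of top score, 98 in WT and 73 in KO, were left out (0.4% per 1000 barcodes). Cells under 5800 UMIs, 1406 WT and 928 KO, were left out, the others thinned to that depth for gating and shares. On thinned counts, macrophage gates needed 10 UMIs of a macrophage list that included *C1qa*, *C1qb*, *C1qc*, *Adgre1* and *Fcgr1*. They then needed 5 UMIs of *Prg4*, *Saa3*, *Marco*, *Alox15*, *Gata6*, *Selp* and *Icam2*, or 2 of *Ccr2*, or 10 of *Folr2*, *Cd163*, *Timd4*, *Cbr2* and *Ccl24*, or 5 of *Olfml3*, *Fcrls*, *Gpr34*, *P2ry12*, *Sall1*, *Hpgds*, *Siglech* and *Tmem119*, with 2 times the opposite list for the last pair. Monocytes needed 10 UMIs of a list that included *Ly6c2*, *Plac8*, *Chil3* and *Hp*, 3 of *Ly6c2*, and under 10 of the macrophage list. Some genes of the lists are not reported here. These limits were set after the gate genes were seen. CPM are summed counts scaled to the total UMIs of the same cells. Intervals are exact Poisson, or exact conditional for ratios (95%), and cover counting error only. Python 3.11.15, scipy 1.17.1 and scanpy 1.11.5 were used.

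The members and lists were chosen with earlier results of these data known. Named genes are the 8 members, the 3 highest of each wider list and those past the fold, and the 3 genes most like each member (at least 50 CPM in 1 profile). Alternatives covered the added CPM, cell limits, doublets, gate limits, single cells, other cells' markers and sex.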

Additional observations from a re-analysis of the deposited data

Results flagged for a closer look

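*Thbs1* was past its counting error in opposite directions in different gates: its log2 ratio of KO to WT was 0.60 in *Prg4*/*Saa3*/*Marco* cells and -2.15 in *Folr2*/*Cd163* cells, a difference of 2.75. *Tgfbi* likewise had 0.45 in *Ccr2*-positive macrophages and -1.19 in *Prg4*/*Saa3*/*Marco* cells, a difference of 1.65. The *Tgfbi* value of *Ccr2*-positive macrophages was 0.10 in *Xist* cells (588 CPM in WT and 631 CPM in KO). In Y-linked cells it was 0.75 (444 and 755 CPM). The *Thbs1* value of *Folr2*/*Cd163* cells rested on few cells, with 44.1% of the WT UMIs in 1 cell. It was -1.66 without the highest cell of each library and -1.33 with gate limits 2 UMIs higher (70.4 and 22.1 CPM). In *Xist* cells it was -0.56 and in Y-linked cells -2.79. The *Thbs1* value of *Prg4*/*Saa3*/*Marco* cells was 0.21 in *Xist* cells and 0.59 in Y-linked cells. In that gate the cells with at least 2 *Prg4* UMIs had 2224 CPM of *Thbs1* in WT and 2412 CPM in KO. The other cells had 860 and 1336 CPM. Cells with *Prg4* were 14 of 46 in WT and 24 of 43 in KO, and the part of this in the ratio was not tested. Neither difference between gates was tested, since there is 1 library per genotype.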

How the results depend on the processing

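The number of large ratios among the members, 5 as reported, was 3 with the mean over cells of per-cell CPM, 2 in cells with *Xist* and no Y-linked UMI, and 2 with each cell thinned to 5800 UMIs, which left 20 pairs with enough UMIs; under the other 12 alternatives it was 4 to 7. Of the 2 in *Xist* cells, 1 was among the 5 (*Thbs1* in *Ly6c2*-high cells), and the other was *Ecm1* in *Ccr2*-positive macrophages. *Fn1* in *Olfml3*/*Fcrls* cells was reversed in *Xist* cells, at -0.14. *Thbs1* in *Ly6c2*-high cells was just short of the limit with the mean over cells of per-cell CPM (-0.998) and at the thinned depth (-0.946). *Prg4* in its gate was so as well, at 0.974 and 0.980. The 11 large ratios of the wider lists became 19 with 1 CPM added, 17 without cells with a fibroblast marker UMI, 3 at the thinned depth and 7 with only the *Prg4*/*Saa3*/*Marco* cells that had at least 2 *Prg4* UMIs. With gate limits 2 UMIs higher, *Fn1* in *Folr2*/*Cd163* cells (1.22) and *Thbs1* in *Ccr2*-positive macrophages (-1.19) were also past the limit, and without cells with a fibroblast marker UMI so was *Fn1* in *Folr2*/*Cd163* cells (1.27). The same gate was highest in both libraries for 5 to 7 members under every alternative run for it. Leaving *Prg4* out of the gate genes changed no gate. The thinned ratios, the split by *Prg4* and the limit of 20 macrophage UMIs were chosen after seeing the data. No paired analysis was possible because each genotype had 1 library and the labels give no shared replicate numbers. The assignment of cells to hearts was not used here, so no spread between the hearts of a pool is given, and genes under about 10 CPM rest on few UMIs.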

Other observations

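*Sparc* was at 28.3 CPM in KO T cells and 0.36 CPM in WT T cells, but 97.6% of the KO UMIs were in 1 cell. *Col18a1*, the collagen XVIII gene, had 0 UMIs in WT and 74 in KO *Prg4*/*Saa3*/*Marco* cells (27.3 CPM), under the 100 UMIs needed for a ratio. *Tnfaip6*, a hyaluronan-binding protein, had 14 and 62 UMIs in *Ccr2*-positive macrophages (4.63 and 21.0 CPM). Cardiomyocyte markers in the same gate were at 92.6 CPM (WT) against 8.12 CPM (KO), and their part in the ratios of that gate was not tested. The 3 cycling markers summed to 258 CPM (WT) against 93.5 CPM (KO) in *Folr2*/*Cd163* cells and to 271 against 464 CPM in *Prg4*/*Saa3*/*Marco* cells.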
